A study of Mus musculus with 8 samples.

Results

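The genes described here carry out or control the making, uptake and handling of cholesterol. Their 32 symbols were chosen by pathway role, with earlier results of these data known. They cover the mevalonate pathway, the steps from squalene to cholesterol, the SREBP2 control system, sterol movement out of or within the cell, and the lipases Pnpla3 and Pnpla5. Each gene was read from the array probe that carries its symbol alone. Where several probes did, the one with the highest mean over the arrays was used. Of the 32 genes, 28 had a probe (of 19321 genes on the array) and 27 entered the tests (of 16800). Fdps, Acat2, Soat1 and Soat2 were not analysed here. Pmvk, the phosphomevalonate kinase, listed on 4 of 8 arrays at 1.5 to 2.0 units, was too dim to test.

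The study hybridised Cy5-labelled RNA from mouse livers to 8 oligonucleotide arrays, 1 per tissue sample. All mice, controls included, had received the polycyclic aromatic carcinogen DMBA as neonates, at 4 to 5 days of age, and were then kept on their diet for 30 weeks. Normal diet liver gave 2 arrays (mice 117 and 120). Livers of mice on high fat diet gave 3 arrays of tumour and 3 of non-tumour tissue (mice 117, 186 and 1 in each). Non-tumour tissue therefore came from livers that also bore tumours, and no liver was free of DMBA. The 2 mice numbered 117 were on different diets and are different animals. Genotype, strain and sex are not given in the sources used here. A shared number on a tumour and a non-tumour array marks 1 liver. The p-values rest on a spread pooled over all 8 arrays, with 2 or 3 animals per group and 1 array for each tissue. In the main fit the tumour and non-tumour arrays of 1 liver are treated as independent.

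Cholesterol is built from acetyl-CoA by way of mevalonate, farnesyl diphosphate, squalene and lanosterol. The transcription factor SREBP2, encoded by Srebf2, turns on most genes of this route. SREBP2 is made as a membrane protein of the endoplasmic reticulum, where Scap escorts it to the Golgi for cleavage when sterols are low and the Insig proteins hold Scap back when sterols are high. The liver is the main site of cholesterol balance, since it makes sterol, takes up lipoproteins, and secretes cholesterol into bile through the transporter formed by Abcg5 and Abcg8.

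Levels are given in deposited units, in which the median listed probe of each array is 25. The dimmest listed probes were at 1.2 to 1.6 units, and 81.8% to 88.5% of the 23473 probes were listed per array. Levels of different genes come from different probes and are not set against each other. Differences come from limma on the log2 scale of the scanner signal, with an offset of 50 that makes the log2 differences of dim genes too small. A gene is called changed at a Benjamini-Hochberg adjusted p under 0.05 over all genes tested. All such p-values below are from limma. Arrays of 1 group correlated at r = 0.984 to 0.996 and arrays of different groups at 0.919 to 0.983. The ratio between the scanner's gain settings was 0.444 to 0.445 on the normal diet arrays and 0.464 to 0.465 on the high fat diet arrays, so diet and scan setting cannot be told apart.

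In tumour against non-tumour tissue of the same livers, the route to cholesterol was higher nearly throughout. Of the 27 genes tested, 21 rose and 1 fell, with 12.0% of all genes called higher and 13.4% called lower. The median log2 difference was 1.12, and it was -0.01 over all genes. On the normalized log2 scale, on which overlap is judged throughout, every tumour array lay above every non-tumour array in 21 genes, against 19.1% of all genes, and 1 gene lay below in every array, against 22.3%. The remaining 5 genes overlapped. In deposited units, 20 genes lay above and 4 below, namely Ebp, Insig2, Abcg5 and Abcg8. The shares of all genes that did so in deposited units were not counted. As these are whole-tissue samples, more cells of a type and more RNA per cell cannot be told apart.

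**Figure D1:**
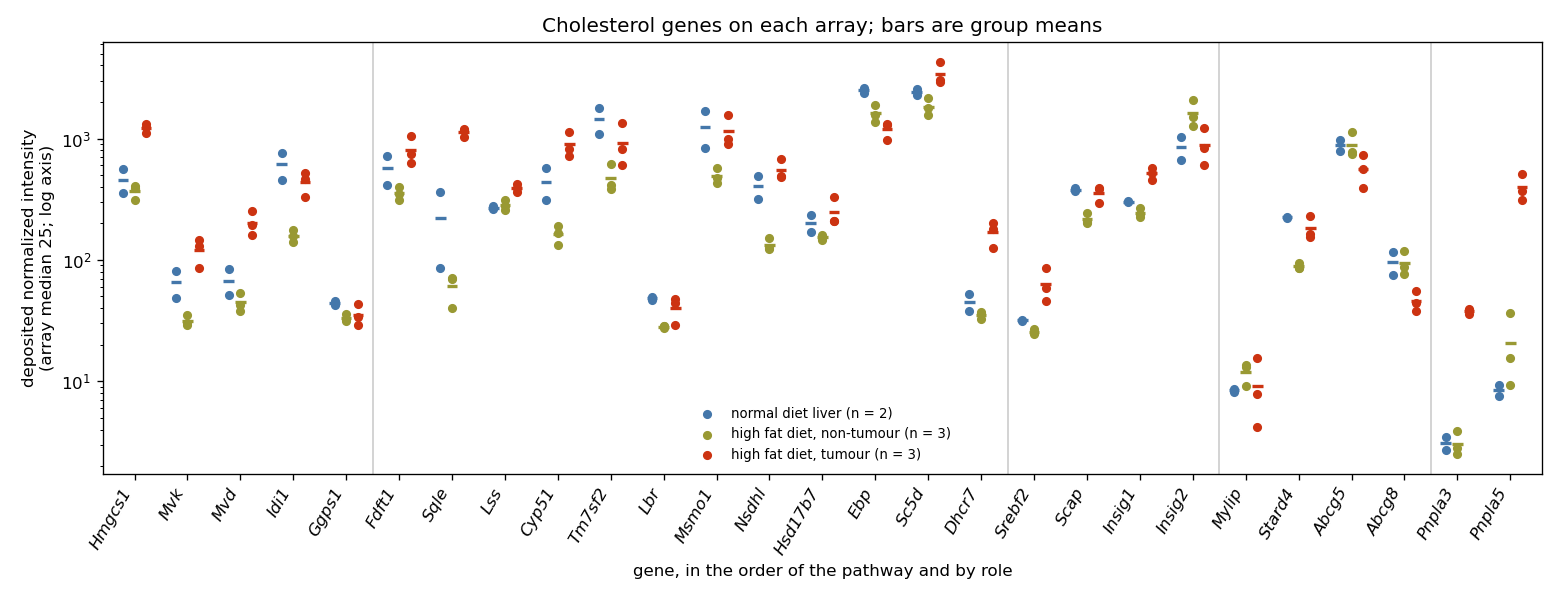
Deposited level (log axis, array median 25) of the 27 genes tested on each of 8 arrays, with bars at group means; vertical lines part the roles in the text. On this scale all tumour points lie above all non-tumour points for 20 genes, among them Hmgcs1 (1120 to 1326 against 311.8 to 402.9) and Pnpla5 (311.2 to 509.4 against 9.3 to 36.6). The share of all genes on this scale was not counted.

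Among the mevalonate pathway genes, 4 of 5 tested rose in tumour. Hmgcs1, which joins acetyl-CoA and acetoacetyl-CoA to HMG-CoA, stood at 311.8, 402.9 and 390.0 units in non-tumour tissue of mice 117, 186 and 1, and at 1120, 1241 and 1326 in their tumours. Every tumour lay above every other array, since the normal diet livers had 355.3 and 558.1. The mean went from 368 ± 49.3 to 1229 ± 103 (SD, n = 3 each), 3.34-fold, and the log2 difference was 1.89 ± 0.17 (SE, adjusted p = 0.000840). A second Hmgcs1 probe gave 1.53. Mvk, the kinase that phosphorylates mevalonate, rose from 28.9, 30.4 and 35.3 units to 85.2, 129.3 and 146.3 (1.16 ± 0.15, adjusted p = 0.00305). Mvd, the decarboxylase that forms isopentenyl diphosphate, rose from 53.6, 42.4 and 38.0 to 194.1, 160.7 and 252.5 (1.55 ± 0.17, adjusted p = 0.00152). Both genes are dim in non-tumour tissue, and the ratios of their mean levels were 3.81 and 4.53. Idi1, which interconverts the 2 isoprenoid building blocks, rose from 139.4, 157.5 and 175.2 to 331.4, 467.7 and 521.7 (1.41 ± 0.21, adjusted p = 0.00458). Ggps1, which takes isoprenoids out of the sterol route to geranylgeranyl diphosphate, was the gene of this group that did not pass. It read 35.9, 32.3 and 31.2 in non-tumour and 34.1, 43.4 and 28.9 in tumour (0.05 ± 0.06, adjusted p = 0.659).

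From squalene to cholesterol, 11 of 12 genes tested rose in tumour. Squalene epoxidase, Sqle, which adds the first oxygen to squalene and is a rate-limiting step, had the highest log2 difference of the 27 genes in this fit (3.70). With the mean blank signal subtracted it was 4.49, and that of Pnpla5 was 4.64. It stood at 69.9, 71.5 and 40.4 units in non-tumour tissue of mice 117, 186 and 1 and at 1176, 1034 and 1196 in the tumours. The groups were far apart, with means of 60.6 ± 17.5 and 1135 ± 88.5 (SD, n = 3 each), an 18.7-fold ratio and a log2 difference of 3.70 ± 0.38 (SE, adjusted p = 0.00128). Cyp51, the lanosterol demethylase, rose from 168.0, 190.4 and 133.0 to 825.8, 722.5 and 1131 (2.38 ± 0.24, adjusted p = 0.00117). Nsdhl, which removes the C4 carboxyl groups, rose from 124.1, 152.0 and 122.1 to 489.9, 479.3 and 683.6 (1.92 ± 0.18, adjusted p = 0.00107). In both genes the tumour of mouse 1 was the highest array.

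Dhcr7, the reductase of the last step, was dim in non-tumour tissue at 36.0, 37.0 and 32.3 and reached 125.3, 202.1 and 178.9 in tumour, a 4.81-fold ratio of means (log2 difference 1.48 ± 0.13, adjusted p = 0.000848). Fdft1, the squalene synthase that commits farnesyl diphosphate to sterols, rose from 349.9, 395.6 and 312.0 to 745.5, 632.2 and 1045 (1.32 ± 0.23, adjusted p = 0.00799). Its lowest tumour lay above its highest non-tumour array. The methyl oxidase Msmo1 rose by 1.41 ± 0.28 (adjusted p = 0.0134), and the desaturase Sc5d rose by 1.14 ± 0.14 (adjusted p = 0.00211). Lss, which closes squalene epoxide to lanosterol, changed less but evenly, from 279.7, 255.8 and 309.6 to 364.5, 389.6 and 421.7 (0.60 ± 0.04, adjusted p = 0.000472). The dehydrogenase Hsd17b7 went from 144.6 to 161.3 units up to 210.9 to 327.6 (0.67 ± 0.15, adjusted p = 0.0215). Leaving out any 1 non-tumour array took Hsd17b7 past the threshold, with adjusted p = 0.0540 to 0.0674.

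Tm7sf2 and Lbr both encode sterol C14 reductases, and Lbr is also a receptor for lamin B in the inner nuclear membrane. Tm7sf2 was at 613.2, 385.2 and 410.6 in non-tumour and 811.9, 608.1 and 1355 in tumour (1.12 ± 0.31, adjusted p = 0.0418). The lowest tumour level was just under the highest non-tumour level in deposited units, while on the normalized log2 scale the groups did not overlap. The call ended with arrays scaled to the same median (adjusted p = 0.0908), from the deposited values (0.0807), with no filter (0.0554) and with mouse as a block (0.0671). It ended too without the non-tumour array of mouse 186 (0.118) or 1 (0.122), and without the tumour array of mouse 117 (0.0938) or 1 (0.0911). Lbr was at 28.3, 28.7 and 27.6 in non-tumour and 29.2, 43.9 and 47.3 in tumour (0.22 ± 0.06, adjusted p = 0.0432). Its tumour of mouse 117 was hardly above the non-tumour arrays, and the call ended in 13 of 19 other settings, with adjusted p = 0.0518 to 0.125 (0.116 with the block), and the sign changed in 1 more, the local background. Ebp, the sterol isomerase between these steps and Sc5d, did not share the rise. Its levels were 1890, 1371 and 1565 in non-tumour and 1288, 981.2 and 1325 in tumour, a log2 difference of -0.13 ± 0.14 (adjusted p = 0.557).

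The promoters of 25 of the 32 genes were found in RefSeq's table (GRCm38.p6), as 32 windows from 250 bases before to 50 bases after a transcript start. The letters CCAAT, the core bound by NF-Y, a partner of SREBP2, were searched on both strands. They were in 24 of 32 windows (75.0%), against 37.4% of all 32851 windows, and in 24 of 25 genes, against 41.1% of genes. The 24 genes included Ggps1, Ebp, Insig2, Mylip and Abcg5, none of which passed the test in tumour. The Sp1 letters GGGCGG were in 24 of 32 windows (75.0%), against 35.7% of all. The E-box letters CACGTG were in 7 windows (21.9%), against 7.15% of all. The sterol element core CACCCCAC was in 1 window (3.12%), that of Hmgcs1, against 2.87% of all. These shares describe letters and not binding. Hmgcs1, Mvk, Cyp51 and Pnpla5 are printed because they rose in tumour and span 1 to 5 CCAAT matches. The interval between the Abcg5 and Abcg8 starts is printed because it separates 2 genes that did not rise. Each runs 5′ to 3′ up to the base before the start, with every CCAAT match in capitals (read as ATTGG where it is on the other strand). Capitals also mark the 1 match of the sterol element core in Hmgcs1. The interval holds no match, and the CCAAT matches counted for Abcg5 and Abcg8 lie outside it.
Hmgcs1, chr13:119690101-119690350, plus strand: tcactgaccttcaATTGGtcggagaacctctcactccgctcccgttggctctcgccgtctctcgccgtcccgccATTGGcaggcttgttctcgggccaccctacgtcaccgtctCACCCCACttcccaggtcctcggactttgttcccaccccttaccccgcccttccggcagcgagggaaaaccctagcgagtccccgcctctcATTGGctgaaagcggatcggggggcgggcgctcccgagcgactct
Mvk, chr5:114444019-114444268, plus strand: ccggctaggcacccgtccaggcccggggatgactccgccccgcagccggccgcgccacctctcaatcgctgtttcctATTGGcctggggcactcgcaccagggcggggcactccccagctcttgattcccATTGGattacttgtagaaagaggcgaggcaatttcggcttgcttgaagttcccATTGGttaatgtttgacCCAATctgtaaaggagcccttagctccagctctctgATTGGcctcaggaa
Cyp51, chr5:4104698-4104947, minus strand: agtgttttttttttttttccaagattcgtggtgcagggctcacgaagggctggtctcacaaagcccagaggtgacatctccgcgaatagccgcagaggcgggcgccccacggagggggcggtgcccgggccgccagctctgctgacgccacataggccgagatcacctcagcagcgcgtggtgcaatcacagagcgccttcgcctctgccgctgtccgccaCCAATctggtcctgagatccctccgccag
Pnpla5, chr15:84123176-84123425, minus strand: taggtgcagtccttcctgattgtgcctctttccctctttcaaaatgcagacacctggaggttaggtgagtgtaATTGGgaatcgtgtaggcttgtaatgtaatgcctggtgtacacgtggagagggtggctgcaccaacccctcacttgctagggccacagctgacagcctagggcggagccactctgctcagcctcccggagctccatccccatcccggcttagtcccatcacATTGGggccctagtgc
Abcg5-Abcg8 interval, chr17:84683012-84683120, plus strand: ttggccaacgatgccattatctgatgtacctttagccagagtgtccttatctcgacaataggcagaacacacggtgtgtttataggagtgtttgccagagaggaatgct
Counted from the first base of each match to the start, the CCAAT matches of Hmgcs1 lie 45, 176 and 237 bases upstream, with CACCCCAC at 136 between them. Those of Mvk lie at 14, 50, 67, 120 and 173 bases. Cyp51 has its single match at 29 and Pnpla5 has its pair at 16 and 177.

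Of the 4 SREBP2 control genes, 3 rose in tumour. Srebf2 itself was dim, at 24.4, 27.1 and 25.5 units in non-tumour tissue and 58.3, 45.8 and 85.2 in tumour, a 2.46-fold ratio of means (log2 difference 0.61 ± 0.13, adjusted p = 0.0157). The tumours lay above every other array, the normal diet livers being at 32.2 and 31.5. A block for mouse took Srebf2 past the threshold (adjusted p = 0.0614), as did leaving out the non-tumour array of mouse 117 (0.0512) or 1 (0.0520). Scap, the escort protein, rose from 244.3, 201.0 and 206.9 to 389.7, 292.6 and 386.7 (0.77 ± 0.11, adjusted p = 0.00421). Insig1, itself an SREBP target as well as a brake on SREBP, rose from 237.6, 266.9 and 227.2 to 570.5, 521.9 and 457.8 (1.16 ± 0.12, adjusted p = 0.00149). The other brake, Insig2, stood apart from Insig1. It was at 1269, 1506 and 2071 in non-tumour and 605.5, 838.6 and 1217 in tumour, lower in the tumour of each of the 3 mice (-0.59 ± 0.26, adjusted p = 0.161). With mouse as a block Insig2 passed (adjusted p = 0.0160).

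Among the sterol movement genes, 1 of 4 tested rose and 1 fell. Stard4, which carries cholesterol between membranes, rose from 93.4, 86.4 and 85.2 to 154.8, 231.0 and 163.0 (0.86 ± 0.13, adjusted p = 0.00527). Abcg8 fell from 87.2, 76.7 and 118.2 units to 44.2, 54.9 and 37.9, to 2.06-fold lower mean levels (-0.58 ± 0.13, adjusted p = 0.0195). Abcg8 lost its call under a block for mouse (adjusted p = 0.0675) and without the non-tumour (0.0545) or tumour (0.0549) array of mouse 1. Its partner Abcg5, with which it forms the sterol exporter of bile, was lower in the tumour of each mouse but overlapped on the log2 scale. Abcg5 had 1138, 747.0 and 768.4 in non-tumour and 736.4, 556.0 and 389.6 in tumour (-0.38 ± 0.29, adjusted p = 0.402). Mylip, a ubiquitin ligase for lipoprotein receptors, was near the dim end at 4.2 to 15.5 units on the high fat diet arrays and did not pass (adjusted p = 0.404).

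Both lipases rose in tumour. Pnpla5, a triacylglycerol lipase, was at 36.6, 15.6 and 9.3 units in non-tumour tissue and 509.4, 372.1 and 311.2 in tumour, a 19.4-fold ratio of means and a log2 difference of 2.89 ± 0.23 (adjusted p = 0.000675). Pnpla3, a lipid droplet protein whose coding variation is linked to fatty liver in people, was at 3.9, 2.5 and 2.8 in non-tumour and 35.9, 39.0 and 38.9 in tumour. Its non-tumour levels were close to the dimmest listed probes, so the 12.4-fold ratio of means rests on a weak denominator, and the log2 difference with the offset was 0.79 ± 0.02 (adjusted p = 5.2e-05). The 2 genes are neighbours on chromosome 15, 44600 bases apart. Their spread between tumours was small against the distance from non-tumour tissue.

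**Figure D2:**
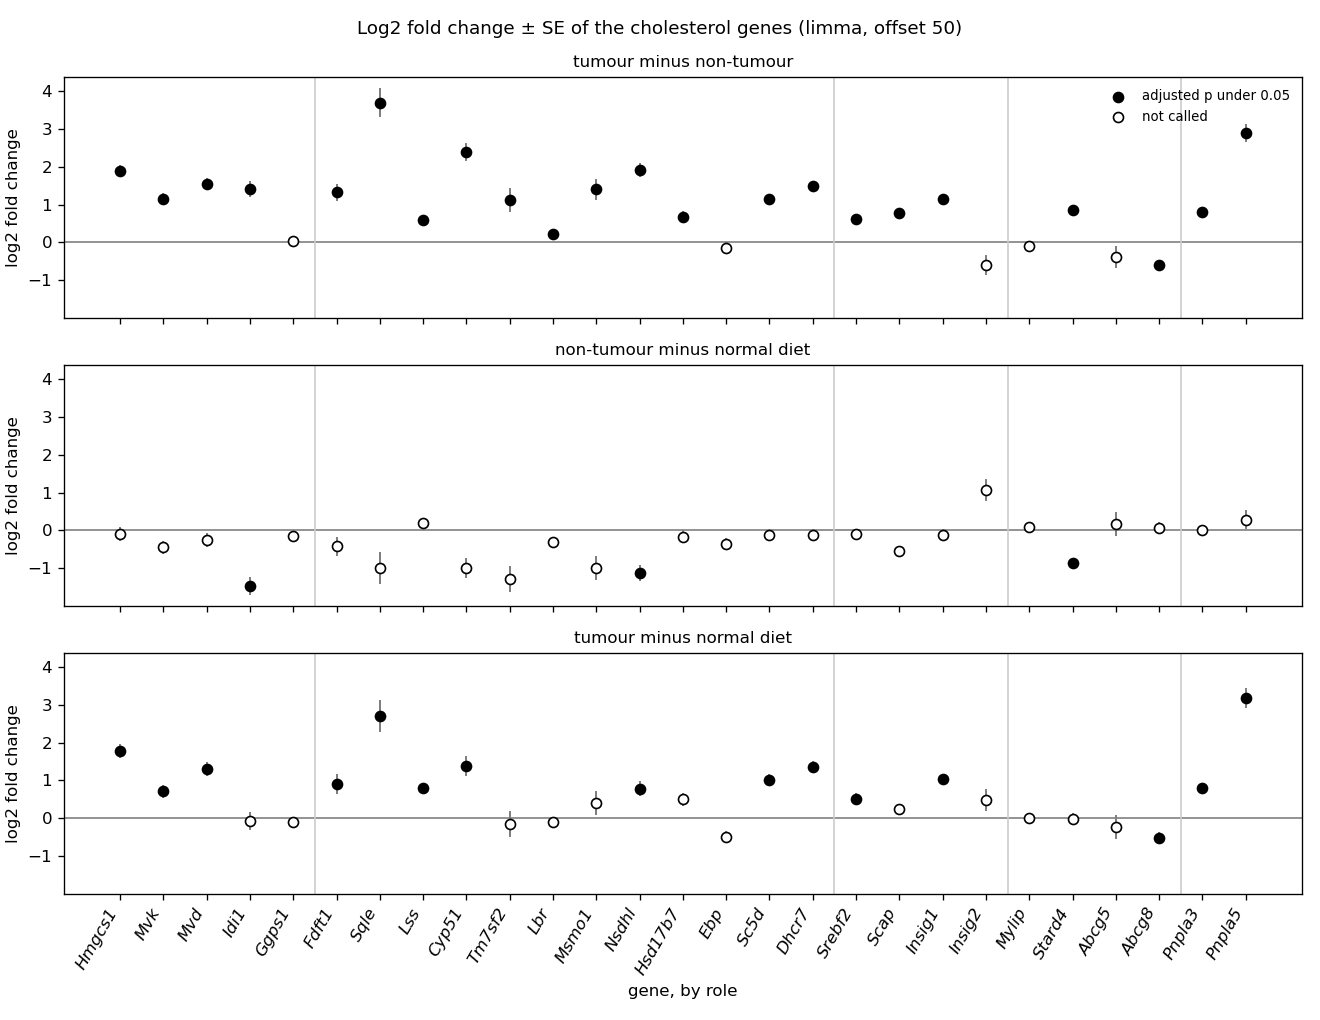
Log2 fold change with its standard error (bars) for 27 genes in 3 comparisons; filled points have an adjusted p under 0.05. In the upper panel 22 points are filled, 21 of them above 0 and Abcg8 below, while the middle panel has 3 filled points, all below 0.

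The rise was found within each liver. Taking tumour minus non-tumour per mouse, 21 genes were positive in all 3 mice, against 27.2% of all genes, and 3 were negative in all 3, against 31.9%: Insig2, Abcg5 and Abcg8. Ggps1, Ebp and Mylip were mixed. The median log2 difference over the 27 genes was 0.81 in mouse 117, 0.86 in mouse 186 and 1.04 in mouse 1. Sqle differed by 3.64, 3.48 and 3.98 in these mice, and Pnpla5 by 2.97, 2.93 and 2.77. Some enzymes varied more between mice, with Cyp51 at 2.30, 1.96 and 2.89, Tm7sf2 at 0.69, 0.86 and 1.81, and Msmo1 at 1.43, 0.92 and 1.87. In 16 of the 27 genes mouse 1 had the highest of the 3 differences, a share that was not counted over all genes. The tumour of mouse 1 was the highest tumour array for 11 of the 17 synthesis genes tested, against 37.2% of all genes.

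**Figure D3:**
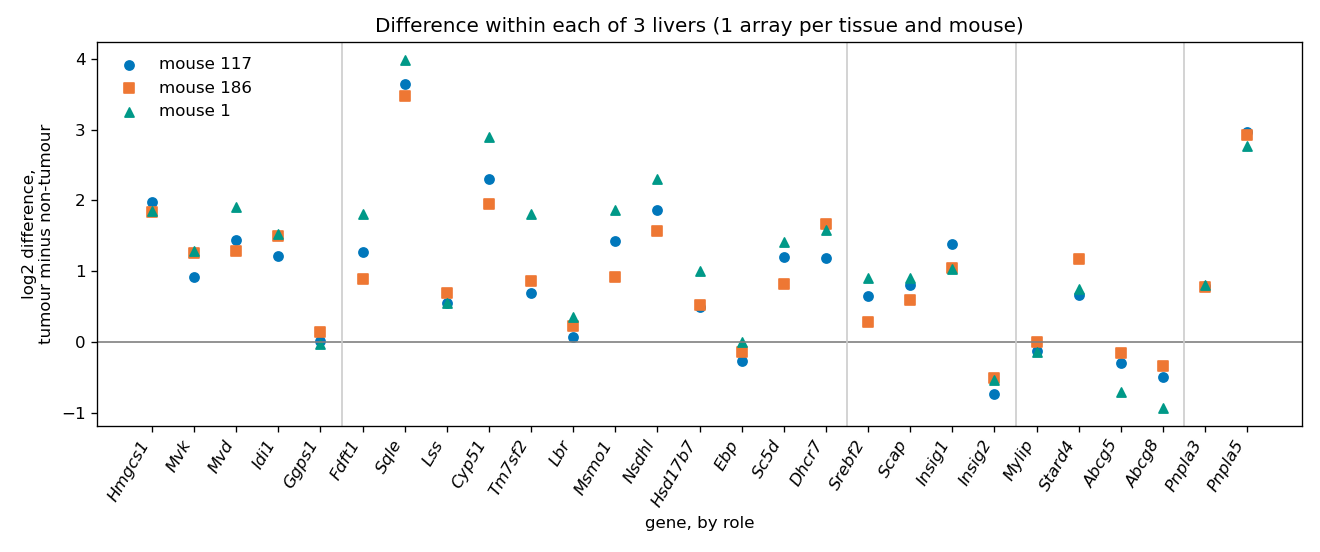
Log2 difference, tumour minus non-tumour, of 27 genes within each of 3 livers, 1 point per mouse and no error since each tissue has 1 array. All 3 points lie above 0 for 21 genes, and mouse 1 (triangles) is widest apart in Tm7sf2 at 1.81 against 0.69 and 0.86.

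Non-tumour tissue on high fat diet was then set against normal diet liver. These comparisons share arrays, since non-tumour tissue serves in both, so the values below are not independent of those above. Of 27 genes, 3 fell and 0 rose in limma, with 2.03% of all genes called lower, 1.81% called higher and 3.84% called in either direction. At an unadjusted p under 0.05, 9 were lower and 2 higher, but the share of all genes at that threshold was not counted. The median log2 difference was -0.17, against -0.005 over all genes. In 13 genes every non-tumour array lay below both normal diet arrays, against 23.0% of all genes, and in 4 above, against 21.0%. With arrays scaled to the same median in place of quantile normalization, 2 of the 27 rose (Lss, adjusted p = 0.0142, and Insig2, 0.0480) and 3 fell. In that setting 6.45% of all genes were called higher and 1.9% lower. The share of higher calls among all called genes was 47.1%, and it was 77.3% with that scaling and 25.7% from the deposited values.

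Idi1 was at 457.1 and 766.9 units in normal diet livers of mice 117 and 120 and at 139.4, 157.5 and 175.2 in non-tumour tissue, 3.89-fold lower in mean level (log2 difference -1.48 ± 0.23, adjusted p = 0.0272). Nsdhl went from 320.1 and 490.9 to 124.1, 152.0 and 122.1 (-1.13 ± 0.21, adjusted p = 0.0393). Stard4 went from 223.8 and 223.4 to 93.4, 86.4 and 85.2 (-0.87 ± 0.15, adjusted p = 0.0339). In these 3 genes no array of 1 group reached the other. All 3 calls ended without the normal diet array of mouse 120 (adjusted p = 0.119 for Idi1, 0.170 for Nsdhl, 0.179 for Stard4). They ended too without the non-tumour array of mouse 117 (0.0831, 0.106, 0.0841), 186 (0.0772, 0.0739, 0.0915) or 1 (0.0636, 0.0938, 0.0850). Nsdhl and Stard4 were also lost without the normal diet array (0.0567, 0.164) or tumour array (0.0685, 0.0534) of mouse 117, and Nsdhl without the tumour of mouse 186 (0.0504), with no filter (0.0519) and with only the 2 groups fitted (0.0576).

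Other enzymes had the same sign with no call. Sqle was at 86.2 and 359.8 in normal diet liver against 40.4 to 71.5 in non-tumour tissue (-1.0 ± 0.42, adjusted p = 0.259). Cyp51 had 312.8 and 566.6 against 133.0 to 190.4 (-0.99 ± 0.27, adjusted p = 0.100), and Tm7sf2 had 1090 and 1780 against 385.2 to 613.2 (-1.28 ± 0.35, adjusted p = 0.106). In these 3 genes the groups did not overlap, but the normal diet livers were far from each other. Sqle passed without the normal diet array of mouse 117 (adjusted p = 0.0375), and Cyp51 (-1.30, adjusted p = 0.0367) and Tm7sf2 (-1.57, 0.0457) passed from the deposited values. Lbr (-0.30 ± 0.07, adjusted p = 0.0674) passed in 5 other settings (0.0233 to 0.0481) and Scap (-0.53 ± 0.12, 0.0742) in 4 (0.0221 to 0.0477). Insig2 had the opposite sign, at 1038 and 659.5 in normal diet liver against 1269 to 2071 (1.08 ± 0.29, adjusted p = 0.106).

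Between the normal diet livers, that of mouse 120 was the higher for a larger share of the synthesis genes than of all genes. Of the 17 synthesis genes tested, 8 were higher in mouse 120 by over 0.5 on the log2 scale. Of all 16800 genes, 80 were (0.476%). In 13 of the 17 the liver of mouse 120 was higher, against 49.8% of all genes, and the median difference was 0.45 against -0.0002. Sqle differed most at 1.57, with 359.8 units in mouse 120 and 86.2 in mouse 117. Msmo1 followed at 0.96, Cyp51 at 0.80 and Fdft1 at 0.76. Insig2 (-0.52), Abcg8 (-0.35) and Abcg5 (-0.23) were lower in mouse 120. With 1 array each these are differences between 2 livers, with no test.

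**Figure D4:**
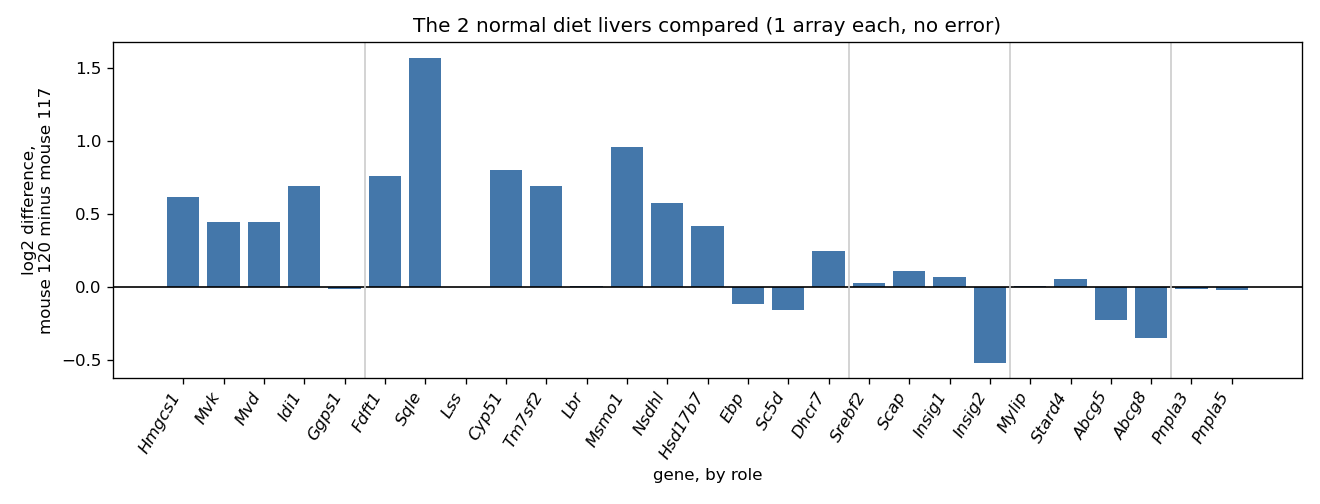
Log2 difference between the 2 normal diet arrays, mouse 120 minus mouse 117, for 27 genes by role; bars start at 0 and carry no error, having 1 array each. Sqle stands out at 1.57, while Pnpla3 and Pnpla5 lie near 0.

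Tumour against normal diet liver gave fewer calls among the 27 genes than tumour against non-tumour tissue of the same livers. Over all genes it gave more, with 27.8% called in either direction against 25.4%. Here 14 of 27 genes rose and 1 fell, with 12.9% of all genes called higher and 15.0% lower. The median log2 difference was 0.51, against -0.01 over all genes. In 15 genes every tumour array lay above both normal diet arrays, against 25.5% of all genes, and in 3 below, against 31.8%. Both comparisons use the same tumour arrays, so their calls are not independent. Of the 21 genes that rose against non-tumour tissue, 14 rose here also. The share of all genes that rose in both was not counted. The other 7 of the 21 were Idi1, Tm7sf2, Lbr, Msmo1, Hsd17b7, Scap and Stard4. In Idi1, Tm7sf2, Lbr and Stard4 the log2 difference from normal diet was below 0.

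By log2 difference, the genes that rose furthest against normal diet liver were Hmgcs1 (1.79 ± 0.19, adjusted p = 0.00133), Sqle (2.70 ± 0.42, adjusted p = 0.00517) and Pnpla5 (3.18 ± 0.26, adjusted p = 0.000593). Dhcr7 (1.36 ± 0.15), Mvd (1.30 ± 0.19), Insig1 (1.05 ± 0.14), Sc5d (1.01 ± 0.15), Pnpla3 (0.80 ± 0.03) and Lss (0.79 ± 0.05) rose too, with adjusted p from 5.1e-05 to 0.00441. Cyp51 (1.39 ± 0.27), Fdft1 (0.90 ± 0.26), Nsdhl (0.78 ± 0.21), Mvk (0.71 ± 0.17) and Srebf2 (0.51 ± 0.14) also passed. Abcg8 fell by 0.51 (adjusted p = 0.0419). The normal diet array of mouse 117 was the lower of the pair for most synthesis genes. Without it, the median log2 difference of the 27 genes was 0.49, against -0.01 over all genes. The calls of Mvk (adjusted p = 0.138), Fdft1 (0.214), Cyp51 (0.0515), Nsdhl (0.174), Srebf2 (0.167) and Abcg8 (0.233) then ended. Of these, Mvk (0.0755), Fdft1 (0.0958), Nsdhl (0.0766), Srebf2 (0.106) and Abcg8 (0.0673) also ended with only the 2 groups fitted. From the deposited values Sc5d (0.0974), Fdft1 (0.184) and Nsdhl (0.159) ended. Leaving out other arrays ended the calls of Srebf2 and Fdft1 in 5 of 7 cases each, of Abcg8 in 5, of Nsdhl in 3 and of Mvk in 2, with adjusted p up to 0.143. The Sqle difference was 1.91 without that array and 3.49 without the one of mouse 120. Ebp was below both normal diet arrays in every tumour, at 981.2 to 1325 against 2374 and 2627 units (-0.50 ± 0.16, adjusted p = 0.0551), and from the deposited values it fell by 1.06 (adjusted p = 0.00255). The share of higher calls over all genes was 46.2%, and 28.9% from the deposited values.

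Genes that act beside the pathway were read from 7 further lists, chosen for function with earlier results of these data known. Of 50 tested, 12 rose and 11 fell in tumour against non-tumour tissue, where 12.0% of all genes were called higher and 13.4% lower. The same shares stand behind the count of each list below. Receptors and adaptors for lipoproteins had 2 of 6 higher. They were Scarb1, the HDL receptor, at 0.98 ± 0.13 (adjusted p = 0.00351), and Lsr, a lipoprotein receptor of hepatocytes, at 0.90 ± 0.11 (adjusted p = 0.00208). Scarb1 went from 130.2, 151.6 and 170.6 units to 233.5, 301.5 and 380.1. The suppliers of acetyl-CoA had 3 of 5 higher, namely Acly, the ATP citrate lyase (0.81 ± 0.11, adjusted p = 0.00349), Acss2 (0.50, adjusted p = 0.0419) and the citrate carrier Slc25a1 (0.47, adjusted p = 0.0458).

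The enzymes that oxidise sterols moved apart. Of 5 tested, 1 rose and 2 fell. Cyp27a1, which starts the acidic route of bile acid synthesis, fell from 2088, 1687 and 1973 units to 426.4, 608.2 and 197.4 (-2.02 ± 0.38, adjusted p = 0.0112). Cyp7b1, an oxysterol hydroxylase of that route, fell from 681.0, 531.8 and 851.8 to 135.9, 178.3 and 37.0 (-2.14 ± 0.41, adjusted p = 0.0116). The lowest tumour of both was that of mouse 1. Cyp39a1, another oxysterol hydroxylase, rose from 117.3, 108.3 and 97.4 to 311.9, 421.9 and 351.9 (1.56 ± 0.12, adjusted p = 0.000591).

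Genes of SREBP processing and sterol sensing had 2 of 8 higher and 3 lower, with Pgrmc1 at -0.76 (adjusted p = 0.00313), Erlin1 at 0.52 (0.00183) and Pgrmc2 at -0.44 (0.0106). Lysosomal and intracellular sterol carriers had 2 of 12 higher and 3 lower. Scp2, a sterol carrier of peroxisomes, fell by 1.03 (adjusted p = 0.0105), Npc2, which takes cholesterol out of lysosomes, rose by 0.66 (0.00190), and Osbpl9 fell by 0.44 (0.00221). Among LXR and its targets 1 of 5 was higher, the cholesterol exporter Abca1 (0.62, adjusted p = 0.0232), and 1 lower, Nr1h3, which encodes LXR alpha (-0.22, adjusted p = 0.0211). The branches from isoprenoids had 1 of 9 higher, Rabggtb (0.41, adjusted p = 0.00223), and 2 lower, Rabggta (-0.46, 0.00153) and Pdss2 (-0.32, 0.0137). These lists were thus mixed in direction.

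Between non-tumour tissue and normal diet liver, 3 of the 50 rose and 1 fell, with 1.81% of all genes called higher and 2.03% lower. Lipa, the lysosomal lipase that frees cholesterol from its esters, rose from 572.1 and 467.1 units to 837.1, 860.3 and 978.0 (0.87, adjusted p = 0.00575). Vldlr (0.77, adjusted p = 0.0485) and the sterol exporter Abcg1 (0.39, adjusted p = 0.0375) rose, and Acss2 fell by 1.14 (adjusted p = 0.0174). Between tumour and normal diet liver, 11 of the 50 rose and 10 fell, with 12.9% of all genes called higher and 15.0% lower.

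The tissue checked as liver on every array. Of 8 hepatocyte markers tested, 3 were higher in tumour than in non-tumour tissue (Fga 1.14, Apoa1 0.86, Serpina1a 0.71) and 1 lower (Cps1 -1.07). Their summed level was 181900 to 187900 units in normal diet liver, 144600 to 147000 in non-tumour tissue and 164000 to 177900 in tumour. Of 60 markers over 11 cell types, 7 rose and 7 fell in tumour, close to the 12.0% and 13.4% of all genes. Macrophage markers had 2 of 8 lower, with sums of 1494 to 2262 units in normal diet liver, 2513 to 2832 in non-tumour and 1241 to 1842 in tumour. Stellate cell markers had 1 of 8 higher and 1 lower, with sums of 272.9 to 295.4, 566.5 to 827.5 and 725.3 to 1426. Both red blood cell markers tested were lower, with sums of 472.8 to 575.1, 338.7 to 400.3 and 108.3 to 119.3. Markers of muscle and mesothelium had 1 of 5 higher (Msln 1.82), with sums of 207.8 to 242.8, 164.1 to 207.6 and 490.2 to 617.5. Pancreas and gut markers had 1 of 4 higher (Cela1 1.76), with sums of 124.4 to 142.0, 137.4 to 152.9 and 372.8 to 615.0, while Cpa1 was listed on none of the 8 arrays. Endothelial markers had 1 of 6 higher and cholangiocyte markers 1 of 5 lower. The sums of the endothelial, cholangiocyte, lymphocyte, neutrophil and adipose lists overlapped between tumour and non-tumour arrays. The part of these cell types in the changes of the cholesterol genes was not tested.

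The calls depended on how the background of the arrays was treated. Normexp with each spot's local background, in place of the blank spots, kept 2 of the 22 calls in tumour against non-tumour tissue. They were Sqle and Nsdhl. Of the rest, 17 kept their sign and Idi1, Lbr and Sc5d changed it. Over all genes the local background setting called 125 genes, where normexp against the blank spots gave 4267. With the mean blank signal simply subtracted, 21 of the 27 genes rose and 1 fell, with 12.4% of all genes called higher and 13.7% lower. The local background followed the signal of its own spot, with rank correlations of 0.902 to 0.960, and came to a median of 39.3% to 61.9% of the signal of spots above 1000.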

How the data were processed

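Total RNA was amplified to aminoallyl RNA and coupled to Cy5, per the labels' protocols. The deposited scanner tables hold a median signal intensity and a local background intensity for each of 27456 spots, 2736 of them blank. The value table deposited by the authors holds, per probe, the spot intensity minus the mean blank intensity, scaled so that the median listed probe is 25. This was found by setting each column against its scanner table (r2 = 1 on all 8 arrays), and spots near the blanks have no value there. Scanner and image software, and how tissue was taken, are not given in the sources used here.

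Probes were named through the platform annotation. Of 23473 probes, 20690 had 1 symbol and 2783 had none, and of the former 20556 matched GRCm38.p6 by gene number, with 0 symbols changed. Per gene the probe with the highest mean deposited value was kept, with missing values as 0 (1283 genes had several probes). A gene entered the tests where some group had it listed on every array. Signals were corrected by normexp against the blank spots (offset 50) and then quantile normalized, on the log2 scale. Group means over all 8 arrays were fitted with limma 3.58.1 (R 4.3.3), which was tested on simulated data, with Benjamini-Hochberg adjustment over 16800 genes. A change is an adjusted p under 0.05.

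Same-numbered tumour and non-tumour arrays come from 1 liver per the labels. Their deviations from the group means correlated at 0.443, 0.148 and 0.167, and those of different mice at -0.275 to 0.028. Deviations within a group cancel out for each gene, so the values of different mice are no independent baseline. Mouse number was used as a block in an alternative fit. Other alternatives were other scalings, background corrections, offsets and filters, array weights, the mean over probes, the 2 groups alone, and each array left out. All 32 genes are named. From each further list up to 3 called genes with the largest changes are named per comparison. For tumour against normal diet liver only the counts of these lists are given. The genes and lists were chosen with earlier results of these data known. The number of arrays, 2 or 3 a group, limits the precision.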

Additional observations from a re-analysis of the deposited data

How the results depend on the processing

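The rise of the cholesterol genes in tumour against non-tumour tissue reversed for no called gene under any alternative but the local background. With 1 tumour or non-tumour array left out, 17 to 21 cholesterol genes were called, 17 to 20 higher and 0 or 1 lower. Over all genes 3121 to 4177 were called in those fits, with 8.78% to 12.4% higher and 9.8% to 12.5% lower. With the replicate block (mouse number) 19 cholesterol genes were called, 18 higher and 1 lower, against 9.77% of all genes higher and 11% lower. Insig2 was gained and Tm7sf2, Lbr, Srebf2 and Abcg8 were lost, and the block changed no other call of these genes. In the other comparisons the groups share no mouse. With normexp on the local background, 2, 0 and 1 cholesterol genes and 125, 3 and 217 genes in all were called. These counts are for tumour against non-tumour, non-tumour against normal diet and tumour against normal diet, in that order.

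That setting reversed, in the first comparison, Idi1 (-0.47), Ggps1 (-0.10), Lbr (-0.01), Sc5d (-1.83) and Abcg5 (0.0089). In the second it reversed Ggps1 (0.14), Sc5d (1.63), Insig1 (0.0485), Abcg5 (-0.26) and Abcg8 (-0.21), and in the third Ggps1 (0.0354), Hsd17b7 (-0.11), Sc5d (-0.20) and Scap (-0.0418). The cause was not tested. In non-tumour against normal diet, arrays scaled to the same median gave 1403 changed genes and 5 cholesterol genes, with Hmgcs1 (0.13), Hsd17b7 (0.0225), Sc5d (0.0243), Insig1 (0.10) and Pnpla3 (-0.10) reversed. The deposited values gave 1075 and 6, with Abcg5 (-0.0164), Abcg8 (-0.0086) and Pnpla3 (-0.0029) reversed, and array weights gave 1421 and 6. The main setting gave 645 and 3.

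In tumour against normal diet the same-median scaling reversed Idi1 (0.0149), Lbr (0.0151), Mylip (-0.0426) and Stard4 (0.11), the deposited values Msmo1 (-0.0832) and Scap (-0.10), and Mylip also turned with the blank mean subtracted (-0.0068) and with array weights (-0.0108). None of these was called as a change in that comparison.

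Leaving out 1 array at a time gave 117 to 777 genes and 0 to 4 cholesterol genes in non-tumour against normal diet, and 2326 to 4413 and 9 to 14 in tumour against normal diet. The signs that turned were those of Ebp in tumour against non-tumour (-0.22 to 0.0037), of Hmgcs1 (-0.41 to 0.21), Hsd17b7 (-0.38 to 0.0369), Dhcr7 (-0.24 to 0.0058), Abcg5 (-0.0289 to 0.28), Abcg8 (-0.10 to 0.25) and Pnpla3 (-0.0068 to 0.0141) in non-tumour against normal diet, and of Idi1 (-0.41 to 0.29), Tm7sf2 (-0.50 to 0.19), Msmo1 (-0.0677 to 0.88), Mylip (-0.0486 to 0.069), Stard4 (-0.17 to 0.0899) and Abcg5 (-0.46 to 0.0536) in tumour against normal diet. None of these was a call in its comparison. Dim genes such as Pnpla3, Srebf2 and Mylip are limited by the signal over the blank spots.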
